A study of Danio rerio with 8 samples.

Results

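The genes described here are 9 genes of the p53 pathway and the BCL2 family, which stand on the path from a stress signal to the death of a cell: mdm2, mdm4, bbc3, mcl1a, mcl1b, bcl2l1, baxa, casp8 and casp3a. They were taken by symbol from a table of read counts for 14781 zebrafish genes. All 9 symbols were found, and all 9 passed the filter on low counts, with 12126 genes in all.

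RNA was sequenced from sorted tumour cells of transgenic zebrafish. In the myrAKT group, 4 samples came from ganglioneuromas sorted for mCherry, in fish with a myristoylated AKT transgene, which places this kinase at the membrane. In the MYCN group, 4 samples came from neuroblastomas sorted for EGFP, in fish with a MYCN transgene. The labels give no treatment, and neither fish age, nor promoter, nor fish per sample was given in the sources used here. Genotype, tumour type and sorting colour went together in every sample and cannot be told apart, and each p-value reflects how far these samples spread, which may be technical. Levels are given as CPM (read counts scaled to a fixed library size), scaled between libraries with edgeR's TMM factors. Differences are log2 fold changes, myrAKT minus MYCN, from edgeR's quasi-likelihood test, with p-values adjusted by Benjamini-Hochberg over all 12126 genes and a threshold of 0.05.

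The p53 protein is a transcription factor that cells stabilise after DNA damage and other stress. Mdm2 marks it for destruction, mdm4 holds its activity down, and mdm2 is in turn one of its targets, as is bbc3. Proteins of the BCL2 family then decide at the mitochondrion whether cytochrome c is let out. Mcl1 and Bcl-xL (bcl2l1) hold the pore-forming protein Bax in check, and BH3-only proteins such as Puma (bbc3) bind and neutralise these guards. Caspase 8 starts the caspase cascade from death receptors at the cell surface, and caspase 3 carries it out. In mammals, sympathetic neurons are known for their dependence on these proteins when survival factors are withdrawn.

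The libraries differed widely in what they held, and this bears on every value below. Totals were between 25948623 and 43083220 counts per myrAKT library and between 36984845 and 55827123 per MYCN library. Of 9 sympathoadrenal marker genes 8 were lower and 1 higher in myrAKT, with summed levels of 1796 to 4014 CPM in myrAKT and 8427 to 9843 CPM in MYCN libraries, and none of the 9 was at 0 in either group. All 13 leukocyte markers tested were higher in myrAKT, with sums of 18291 to 22644 CPM in myrAKT and 491 to 1500 CPM in MYCN. Of 12 erythroid markers 11 were higher, with sums of 4828 to 12097 CPM in myrAKT and 191 to 333 CPM in MYCN. Of 10 lymphocyte markers 9 were higher and 1 lower, summing to 420.1 to 649.9 CPM in myrAKT and 40.3 to 68.3 CPM in MYCN. All 13 endothelial markers were higher (455 to 687 CPM in myrAKT, 15.0 to 34.6 CPM in MYCN), as were all 10 kidney tubule markers (1161 to 4299 CPM in myrAKT, 17.0 to 34.9 CPM in MYCN). Of 10 stromal markers 9 were higher (484 to 648 CPM in myrAKT, 23.9 to 56.6 CPM in MYCN). Of 7 glial markers 5 were higher and 1 lower (92.4 to 108 CPM in myrAKT, 26.1 to 41.8 CPM in MYCN). Of 13 markers of dividing cells 12 were higher, with sums of 1071 to 1945 CPM in myrAKT and 327 to 646 CPM in MYCN. Among these markers il34, pax5 and erbb3b were at 0 in every MYCN library, and pdgfrb and the globin gene ba1 were at 0 in all 8 libraries. In such sorted populations a change in the share of a cell type and a change of RNA per cell cannot be told apart. The part of these other cells in the results below was not tested.

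Of the 9 genes 5 were higher in myrAKT (mdm4, mcl1a, mcl1b, casp3a and casp8), 2 were lower (bcl2l1 and baxa) and 2 did not pass (mdm2 and bbc3). Over all genes tested 37.6% were called higher and 38.4% lower, so a call in itself sets none of the 9 apart. With TMM factors the groups did not overlap for 5 of the 9. Mcl1a, mcl1b and casp3a lay above in all 4 myrAKT libraries, as 36.2% of all genes did. Bcl2l1 and baxa lay below in all 4, as 36.3% of all genes did. Scaled by library totals, bcl2l1 and baxa overlapped, while mdm2, mdm4 and casp8 also lay apart. The share of all genes that lay apart on that scale is not given here. The genes differed in size of change: mcl1a and mcl1b were several-fold higher, casp8 and bcl2l1 changed about as much as each other in opposite directions, and mdm4, baxa and casp3a changed by less.

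**Figure D1:**
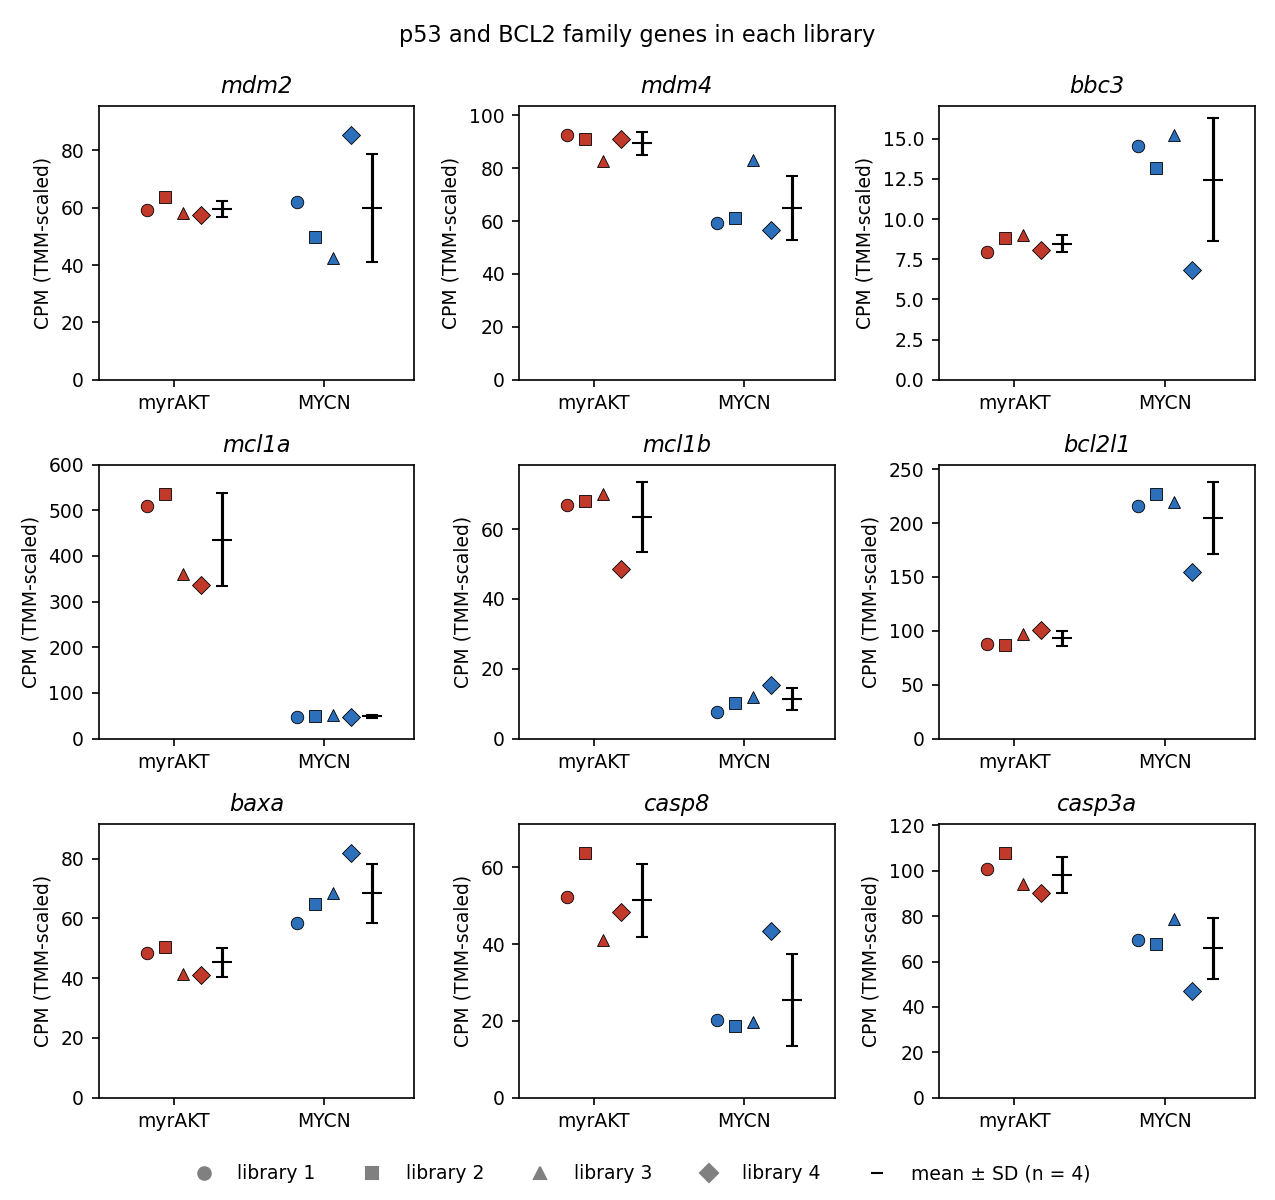
TMM-scaled CPM (vertical axis, from 0) of the 9 genes in each of the 4 myrAKT libraries (red, left) and 4 MYCN libraries (blue, right). Symbols mark the library number, which was not used to pair libraries, and the black bar is the mean ± SD. Mcl1a and mcl1b stand clear above MYCN in all 4 myrAKT libraries, bcl2l1 and baxa stand below, and MYCN 4 (blue diamond) lies away from the other MYCN libraries for casp8, bbc3 and bcl2l1.

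On the p53 side, mdm2, the ubiquitin ligase that limits p53, had 59.3, 63.6, 58.1 and 57.5 CPM in myrAKT libraries 1 to 4, and 61.8, 49.96, 42.3 and 85.4 CPM in MYCN libraries 1 to 4. The myrAKT libraries lay close together inside the wide MYCN range, which MYCN 4 stretched upwards. The log2 fold change was -0.01 ± 0.20 (SE; edgeR adjusted p = 0.977), with a 95% confidence interval of -0.46 to 0.44. The direction depended on the scaling: scaled by library totals alone the values were 65.2, 71.0, 66.3 and 70.02 CPM in myrAKT and 51.7, 45.2, 43.9 and 63.8 CPM in MYCN. On that scale the groups did not overlap, and mdm2 was called higher (log2 fold change 0.41, edgeR adjusted p = 0.026).

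Mdm4, the relative of mdm2 that blocks p53 activity without destroying the protein itself, had 92.7, 91.0, 82.8 and 91.2 CPM in myrAKT, and 59.3, 61.0, 83.0 and 56.6 CPM in MYCN. MYCN 3 lay level with the lowest myrAKT library, and the other MYCN libraries lay well below. Mdm4 was 1.38-fold higher in myrAKT (log2 fold change 0.46 ± 0.14, edgeR adjusted p = 0.013). The call held under all 16 alternatives tried, with adjusted p up to 0.044. The alternative scalings among them all moved the median of all genes upwards, so they could not challenge a higher call.

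Bbc3, the BH3-only gene for Puma and a classic p53 target, had 7.93, 8.84, 9.004 and 8.07 CPM in myrAKT, and 14.5, 13.2, 15.2 and 6.86 CPM in MYCN. MYCN 1 to 3 lay above every myrAKT library and MYCN 4 below every one. The log2 fold change of -0.56 ± 0.24 did not pass (edgeR adjusted p = 0.057). Without MYCN 4 it was -0.77 and passed (edgeR adjusted p = 2.9e-04). MYCN 4 was the only MYCN library not above the myrAKT libraries, so passing without MYCN 4 carries no independent support. Scaling the libraries on dbh and th turned the log2 fold change of bbc3 to 0.90.

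Among the guards of the mitochondrion, mcl1a, a zebrafish counterpart of the short-lived survival protein MCL1, had 509, 536, 361 and 336 CPM in myrAKT, and 47.4, 49.2, 52.1 and 46.5 CPM in MYCN. The 4 MYCN libraries were nearly level, and every myrAKT library lay far above them, with myrAKT 1 and 2 above myrAKT 3 and 4. Its mean was 436 ± 102 CPM in myrAKT and 48.8 ± 2.51 CPM in MYCN (SD, n = 4 each, as for all means below). Mcl1a was 8.93-fold higher (log2 fold change 3.16 ± 0.18, edgeR adjusted p = 3.8e-07). Its log2 fold change stood at percentile 87.3 of all genes tested, so larger rises were common in these libraries. The erythroid marker sum was split the same way within myrAKT, at 11430 and 12097 CPM in libraries 1 and 2 and 4828 and 5693 CPM in libraries 3 and 4. The leukocyte sum was 22644 and 22461 CPM in libraries 1 and 2, and 19086 and 18291 CPM in libraries 3 and 4. Lymphocyte (634 and 650 against 445 and 420 CPM), dividing-cell (1789 and 1945 against 1192 and 1071 CPM) and glial sums split likewise. Endothelial (461 and 455 against 687 and 621 CPM), stromal, kidney tubule and sympathoadrenal sums were instead lower in libraries 1 and 2. The part of any of these cells in the level of mcl1a was not tested.

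Its paralogue mcl1b had 66.9, 68.1, 70.1 and 48.4 CPM in myrAKT, and 7.75, 10.3, 11.9 and 15.4 CPM in MYCN. All myrAKT libraries lay above all MYCN libraries, although myrAKT 4 lay below the other 3. Mcl1b was 5.59-fold higher (log2 fold change 2.48 ± 0.22, edgeR adjusted p = 5.3e-06). The handling of reads shared by both paralogues was not given in the sources used here, so their split is uncertain.

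Bcl2l1, the gene for the survival protein Bcl-xL, went the other way. It had 88.1, 86.7, 96.7 and 100.6 CPM in myrAKT, and 216, 227, 219.7 and 155 CPM in MYCN. With TMM factors the groups did not overlap, and MYCN 4 was the MYCN library nearest to myrAKT. Scaled by library totals the groups overlapped, as MYCN 4 (115.75 CPM) lay below myrAKT 4 (122.4 CPM). Bcl2l1 was 2.20-fold lower in myrAKT (log2 fold change -1.14 ± 0.14, edgeR adjusted p = 5.2e-05). With library totals it was still lower (-0.77, edgeR adjusted p = 0.0054), but with libraries scaled on dbh and th it was at 0.33 and did not pass (adjusted p = 0.365).

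Baxa, a zebrafish Bax gene and so the pore former that the guards restrain, had 48.3, 50.4, 41.4 and 40.9 CPM in myrAKT, and 58.5, 64.9, 68.6 and 82.0 CPM in MYCN. With TMM factors the groups did not overlap. Scaled by library totals they did, as MYCN 1 (48.8 CPM) lay above myrAKT 3 (47.3 CPM) and below myrAKT 4 (49.8 CPM). Baxa was 1.51-fold lower in myrAKT (log2 fold change -0.60 ± 0.14, edgeR adjusted p = 0.0029). The call did not pass with library totals (-0.22, edgeR adjusted p = 0.202) and turned to higher with libraries scaled on dbh and th (0.93, edgeR adjusted p = 0.0090).

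Of the caspases, casp8, the initiator used by death receptors, had 52.3, 63.7, 41.1 and 48.4 CPM in myrAKT, and 20.2, 18.7, 19.7 and 43.4 CPM in MYCN. MYCN 1 to 3 were nearly level, while MYCN 4 reached into the myrAKT range and was the only MYCN library to overlap with it. Casp8 was 2.01-fold higher in myrAKT (log2 fold change 1.01 ± 0.28, edgeR adjusted p = 0.0086). Without MYCN 4 the log2 fold change was 1.38 (edgeR adjusted p = 5.0e-05), a rise that leaving out the only overlapping library makes by itself.

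Casp3a, a zebrafish counterpart of the executioner caspase 3, had 101, 108, 93.9 and 90.2 CPM in myrAKT, and 69.3, 67.8, 78.9 and 47.0 CPM in MYCN. Every myrAKT library lay above every MYCN library. It was 1.49-fold higher (log2 fold change 0.58 ± 0.16, edgeR adjusted p = 0.0081).

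Several of these directions depended on the scaling between libraries. The median log2 fold change of all genes was -0.04 with TMM factors, 0.34 with library totals and 1.45 on the dbh and th scale, which sets libraries level on these genes of catecholamine synthesis. With TMM factors dbh and th were themselves called lower in myrAKT, at -1.42 and -1.33. The upward shift on their scale follows from that difference by construction. The median of the sympathoadrenal markers was -2.54, so these genes do not stand for that list. Whether dbh and th differ per cell was not tested. Calls over all genes were 49.5% higher with TMM, 62.2% with library totals and 89.0% on the dbh and th scale. With library totals 6 of the 9 were higher and 1 lower, where 45.4% of all genes were higher and 27.6% lower. On the dbh and th scale 8 were higher and none lower by edgeR, where 68.6% of all genes were higher and 8.49% lower; at an unadjusted p under 0.05 none of the 9 was lower on that scale either. A change of scaling shifts all genes by nearly the same amount, so subtracting the median of all genes removes most of that shift by construction. The closeness of the values that follow therefore carries no independent support for a direction. Set against that median, bcl2l1 stood at -1.09 with TMM, -1.11 with library totals and -1.12 on the dbh and th scale. Baxa stood at -0.55, -0.55 and -0.52, mcl1a at 3.20, 3.18 and 3.27, and mdm2 at 0.04, 0.08 and 0.07 in the same order of scalings.

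**Figure D2:**
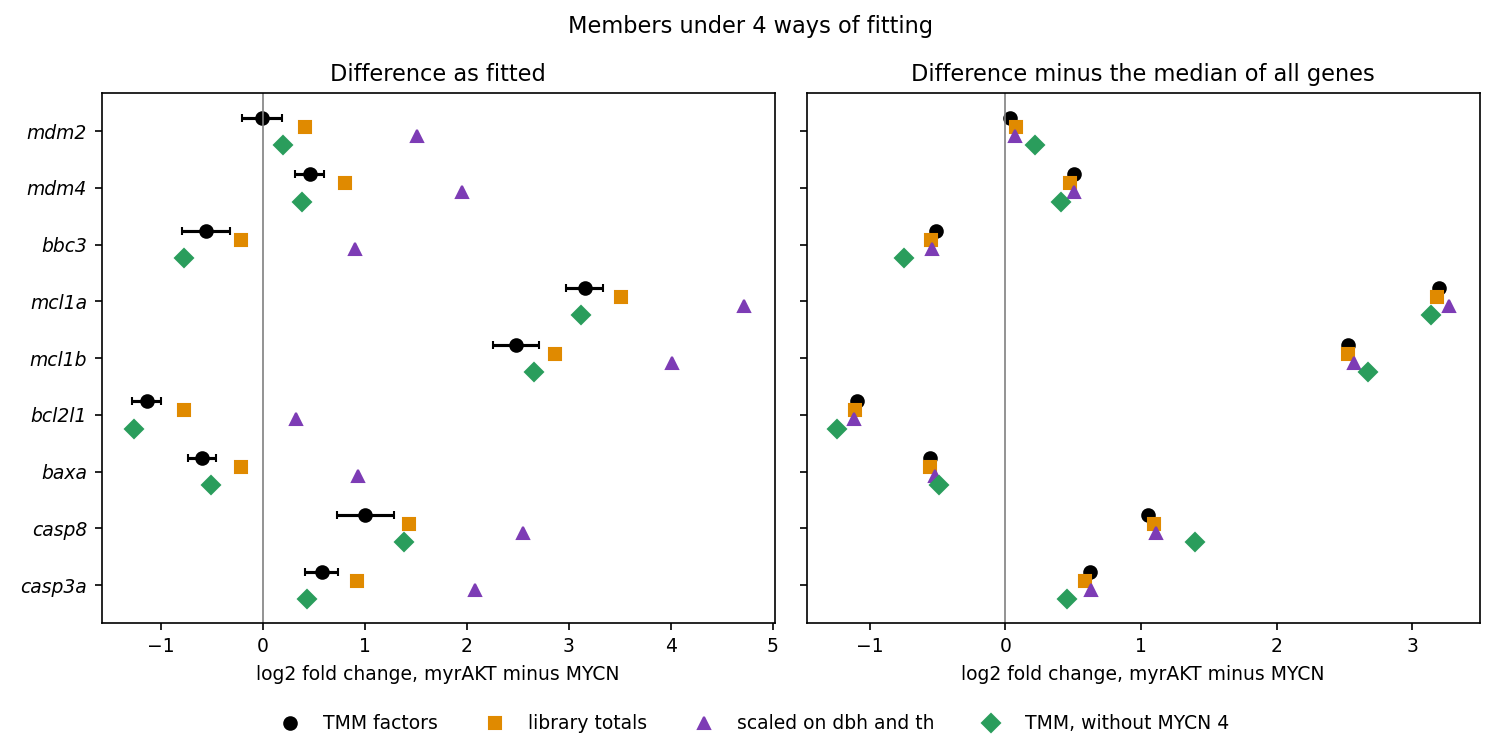
Log2 fold change, myrAKT minus MYCN (horizontal axis), of the 9 genes with TMM factors (black circles; bars in the left panel are the SE), library totals (orange squares), libraries scaled on dbh and th (purple triangles) and TMM without MYCN 4 (green diamonds). The left panel shows the differences as fitted, where baxa moves from -0.60 with TMM to 0.93 on the dbh and th scale. The right panel shows them minus the median of all genes, where the 3 scalings nearly coincide by construction. Leaving out MYCN 4 moves casp8 and bbc3 most there.

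A ratio of 2 genes within a library does not depend on that scaling, so 6 pairs were compared as log2 ratios of their counts. Since gene lengths were not used, only the difference of a ratio between groups is read, not the ratio itself. The ratio of mcl1a to bcl2l1 was 2.53, 2.63, 1.90 and 1.74 in myrAKT, and -2.19, -2.21, -2.07 and -1.74 in MYCN (log2). The groups lay far apart, by 4.25 on the log2 scale or 19.0-fold. The exact permutation test gave p = 0.0286, the smallest that 4 against 4 libraries allow, and 0.0857 adjusted over the 6 pairs, so it did not pass the correction.

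The ratio of bbc3 to bcl2l1 was also higher in every myrAKT library, at -3.47, -3.29, -3.42 and -3.64 in myrAKT and -3.89, -4.11, -3.85 and -4.50 in MYCN (log2). The difference was 0.63 (exact permutation p = 0.0286, adjusted 0.0857). For the ratio of bcl2l1 to baxa, 3 MYCN libraries lay above all myrAKT libraries and MYCN 4, at 0.92, fell among them; the difference was -0.53 (exact permutation p = 0.0857, adjusted 0.129). The ratio of mcl1a to mcl1b differed by 0.62 with overlap (exact permutation p = 0.0571, adjusted 0.114). Those of mdm2 to mdm4 (-0.43, exact permutation p = 0.286) and casp8 to casp3a (0.49, exact permutation p = 0.314) overlapped widely, and both were adjusted to 0.314. Without MYCN 4, 4 of the 6 pairs passed at adjusted p = 0.0429 by the exact permutation test: mcl1a to bcl2l1 (4.36), bbc3 to bcl2l1 (0.49), bcl2l1 to baxa (-0.75) and casp8 to casp3a (0.93). The smallest p that 3 against 4 libraries allow is again 0.0286, so the pairs mcl1a to bcl2l1 and bbc3 to bcl2l1 passed only because more pairs reached it. MYCN 4 was the library that made bcl2l1 to baxa and casp8 to casp3a overlap, so their passing without it carries no independent support.

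**Figure D3:**
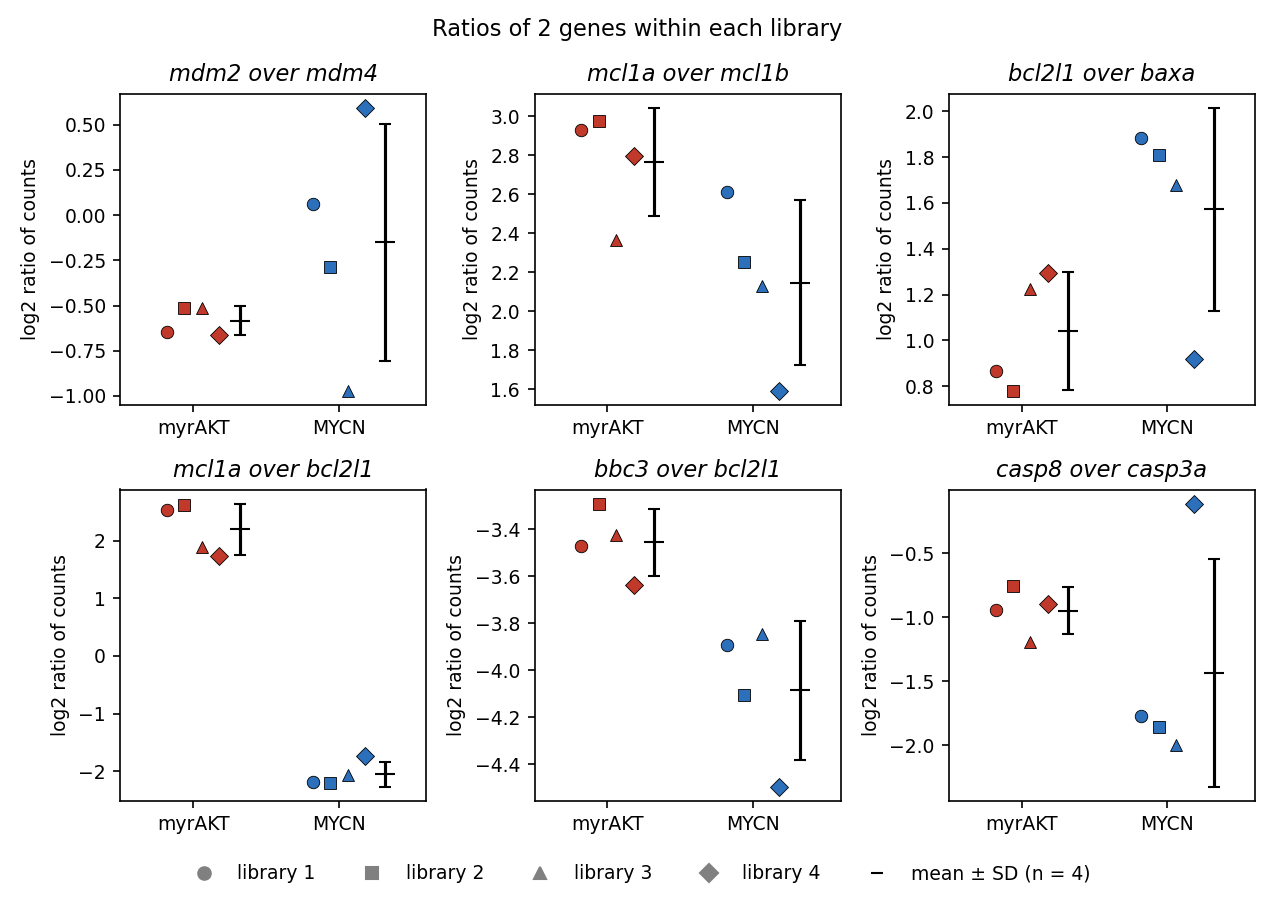
Log2 ratio of the counts of 2 genes within each library (vertical axes, a range of its own per panel and not from 0), for the myrAKT libraries (red, left) and MYCN libraries (blue, right), with the mean ± SD in black. Mcl1a over bcl2l1 and bbc3 over bcl2l1 separate the groups, by 4.25 and 0.63; in the other 4 panels the groups overlap.

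Within the groups the 9 genes varied more in MYCN. The coefficient of variation was between 4.64% (mdm2) and 23.3% (mcl1a) in myrAKT, and between 5.14% (mcl1a) and 46.9% (casp8) in MYCN. It was larger in MYCN for 8 of the 9, all but mcl1a, and for 68.7% of all genes tested. MYCN 4 was the highest or lowest MYCN library for 9 of 9 with TMM factors, as it was for 77.5% of all genes, and for 7 of 9 with library totals (all but mcl1b and baxa), as for 74.3% of all genes. Its leukocyte sum, 1500 CPM, was the highest of the MYCN group, where the others had 491, 693 and 871 CPM. Its dividing-cell sum of 646 CPM stood above 336, 339 and 327 CPM, with pcna high at 195 CPM but mki67 lowest at 47.4 CPM. Its lymphocyte (40.3 CPM), erythroid (191 CPM), endothelial (15.0 CPM), stromal (23.9 CPM) and glial (26.1 CPM) sums were the lowest of the MYCN group. Its sympathoadrenal and kidney tubule sums lay within the range of the other MYCN libraries. The part of these markers in the values of MYCN 4 was not tested.

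Around the 9 genes, 112 genes of 9 pathway lists had rows in the table and 107 were tested. Without the 9 themselves, 51 of 98 were higher, 23 lower and 24 did not pass, with a median log2 fold change of 0.56, against -0.04 for all genes. The share called was 75.5% of these 98, against 76.0% of all genes tested (37.6% higher and 38.4% lower), so the number of calls was at the level of the background. List counts under other settings below are read beside the shares over all genes there. With library totals 45.4% were higher and 27.6% lower, and on the dbh and th scale 68.6% were higher and 8.49% lower. Without MYCN 4, 4945 of 12350 genes tested were higher and 5043 lower, 80.9% in all.

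P53 regulators went both ways: of 14 tested 4 were higher and 6 lower in myrAKT (median 0.05). On the dbh and th scale 9 were higher, and none of the 14 was lower by edgeR at the adjusted or an unadjusted p under 0.05. Ppm1db and ppm1da, paralogues for the phosphatase WIP1 that dampens the p53 response, moved apart. Ppm1db had a mean of 21.9 ± 1.72 CPM in myrAKT, against 8.60 ± 0.300 CPM in MYCN (a log2 difference of 1.35 ± 0.13, edgeR adjusted p = 6.5e-06). Ppm1da had a mean of 11.9 ± 1.07 CPM in myrAKT, against 31.2 ± 0.567 CPM in MYCN (-1.39 ± 0.12, edgeR adjusted p = 3.8e-06; 0.08 without passing on the dbh and th scale). The checkpoint kinase chek1 rose by 1.88 and the ubiquitin ligase rnf34a by 1.05 on the log2 scale. Rchy1, a p53 ubiquitin ligase in mammals, was at -1.41, and rpl11, a ribosomal protein that in mammals can bind MDM2, at -1.80; both passed with TMM, but on the dbh and th scale rchy1 was at 0.08 and rpl11 at -0.25 without passing.

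Of 30 p53 target genes tested 10 were higher and 12 lower in myrAKT, with a median of -0.47, which was -0.07 with library totals (12 higher, 6 lower) and 0.98 on the dbh and th scale (21 higher, 3 lower). Ccng1, the cyclin G gene, had a mean of 603 ± 8.003 CPM in myrAKT, against 1299 ± 559 CPM in MYCN (-1.11 ± 0.25, edgeR adjusted p = 0.0027). Cdkn1a, the cell-cycle inhibitor p21, had a mean of 2.30 ± 0.0973 CPM in myrAKT, against 5.12 ± 2.43 CPM in MYCN (-1.16 ± 0.34, edgeR adjusted p = 0.010). With TMM factors ccng1 and cdkn1a lay below in all 4 myrAKT libraries, as 36.3% of all genes did. Scaled by library totals cdkn1a overlapped, as MYCN 2 (2.87 CPM) lay below myrAKT 4 (2.89 CPM). On the dbh and th scale ccng1 and cdkn1a were at 0.42 and 0.31 without passing. Sesn3 and sesn2, sestrins that restrain mTORC1, rose by 3.32 and 1.69, and the polo-like kinase plk3 by 2.21 on the log2 scale. Tigarb, a regulator of glycolysis, was at -2.18 and gadd45ab, a stress gene, at -1.83 (-0.35 without passing on the dbh and th scale). Isg15, which is best known as an interferon-response gene, had a mean of 26.1 ± 6.97 CPM in myrAKT, against 198 ± 13.7 CPM in MYCN (-2.92 ± 0.19, edgeR adjusted p = 8.8e-07).

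Among the anti-apoptotic BCL2 genes, bcl2l1 stood alone on the lower side: of 5 tested 4 were higher and 1 lower (4 and 0 by edgeR on the dbh and th scale, the 0 also at an unadjusted p under 0.05). Bcl2a, for Bcl-2 itself, had a mean of 12.04 ± 0.830 CPM in myrAKT, against 0.944 ± 0.284 CPM in MYCN (a log2 difference of 3.66 ± 0.23, edgeR adjusted p = 5.5e-07). Bcl2l10 had a mean of 56.8 ± 7.14 CPM in myrAKT, against 27.9 ± 5.66 CPM in MYCN (1.03 ± 0.16, edgeR adjusted p = 2.8e-04).

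Of 5 pore-forming genes 2 were higher, 1 lower and 2 did not pass. The lower call, that of baxa, was lost with library totals (2 higher, 0 lower by edgeR, also at an unadjusted p under 0.05), and on the dbh and th scale 5 were higher. Baxb, the second Bax gene, had a mean of 17.1 ± 2.62 CPM in myrAKT, against 4.92 ± 0.823 CPM in MYCN (1.79 ± 0.18, edgeR adjusted p = 1.2e-05), whereas baxa was lower. Boka, a Bok gene, had 146 to 274 counts per myrAKT library and 0 to 11 per MYCN library.

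Of 12 BH3-only genes 7 were higher and 2 lower, while bbc3 was among the 3 that did not pass. Without MYCN 4 there were 7 higher and 4 lower. The added lower calls were bbc3 and bcl2l11, both lowest of all libraries in MYCN 4, so the larger count carries no independent support. With library totals there were 8 and 1, where 45.4% and 27.6% of all genes were. On the dbh and th scale there were 11 and 1, where 68.6% and 8.49% of all genes were. Bida, for Bid, which links caspase 8 to the mitochondrion, had a mean of 25.4 ± 3.03 CPM in myrAKT, against 1.604 ± 0.556 CPM in MYCN (3.98 ± 0.23, edgeR adjusted p = 4.3e-07). Badb, for Bad, a protein that AKT phosphorylates in mammals, rose by 2.60, bik by 1.48 and pmaip1, the gene for the p53 target Noxa, by 1.49 on the log2 scale. Bnip3, known in mammals for mitophagy under low oxygen, had a mean of 1.62 ± 0.615 CPM in myrAKT, against 23.9 ± 10.6 CPM in MYCN (-3.91 ± 0.46, edgeR adjusted p = 3.5e-05). Its relative bnip3lb was at -0.63 (edgeR adjusted p = 0.020), which did not pass with library totals (-0.29) and turned to 0.83 on the dbh and th scale; the call was also lost without MYCN 3 (-0.49), myrAKT 1 (-0.57) or myrAKT 3 (-0.59). Bcl2l11, for Bim, was at -0.64 without passing (edgeR adjusted p = 0.083), and at -0.87 without MYCN 4 (edgeR adjusted p = 0.0034). Its 3.74 CPM in MYCN 4 was the lowest of all libraries, so passing without MYCN 4 carries no independent support. On the dbh and th scale bcl2l11 was at 0.86.

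Of 10 apoptosome and mitochondrial factors tested 2 were higher and 2 lower (4 higher and 3 lower without MYCN 4). With library totals 4 were higher and on the dbh and th scale 9, with 0 lower by edgeR on both, also at an unadjusted p under 0.05. Apaf1, the scaffold of the apoptosome, had a mean of 58.3 ± 3.10 CPM in myrAKT, against 16.9 ± 0.835 CPM in MYCN (1.79 ± 0.11, edgeR adjusted p = 4.7e-07). Casp9, which the apoptosome activates, had 25.0 ± 1.96 CPM in myrAKT against 31.1 ± 9.61 CPM in MYCN without passing (edgeR adjusted p = 0.230). Its log2 fold change was -0.53 without MYCN 4 (edgeR adjusted p = 0.0011) and 1.18 on the dbh and th scale (edgeR adjusted p = 0.0012). In MYCN 4 it had 17.2 CPM, below every myrAKT library, so passing without MYCN 4 carries no independent support. Aifm1, a flavoprotein of the mitochondrial intermembrane space, rose by 0.51 on the log2 scale. Vdac2, a mitochondrial channel, was at -0.43 and the nuclease endog at -1.10, both passing with TMM but neither with library totals (-0.05 and -0.65), and at 1.08 and 0.45 on the dbh and th scale. The call for vdac2 was also lost without MYCN 1, myrAKT 2 or myrAKT 4 (-0.33, -0.44 and -0.39), and that for endog without any one of the myrAKT libraries (-1.03 to -1.14). Without MYCN 4, which had 36.5 CPM where the other MYCN libraries had 10.2 to 10.5 CPM, endog was at -0.40 (edgeR adjusted p = 0.019).

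Of 11 caspases tested 10 were higher in myrAKT, where 37.6% of all genes were, and none lower by edgeR at either the adjusted or an unadjusted p under 0.05, and the median log2 fold change was 1.65, against -0.04 for all genes. Casp9 was the exception that did not pass, and without MYCN 4 the count was 9 higher and 1 lower. Casp3b, the paralogue of casp3a, had a mean of 5.43 ± 1.96 CPM in myrAKT, against 0.216 ± 0.0895 CPM in MYCN (4.61 ± 0.41, edgeR adjusted p = 5.6e-06). Casp2 rose by 2.27 on the log2 scale. Caspb, an inflammatory caspase of fish, had a mean of 12.7 ± 6.01 CPM in myrAKT, against 0.266 ± 0.166 CPM in MYCN (5.57 ± 0.51, edgeR adjusted p = 6.4e-06).

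Of 14 death receptor genes tested 11 were higher, where 37.6% of all genes were, and 3 did not pass. None was lower by edgeR at either p, where 38.4% of all genes were lower at the adjusted p. Without MYCN 3 there was 1 lower. The list median of the log2 fold change was 2.58 (2.49 without MYCN 4), against -0.04 for all genes. Of the 25 symbols listed, fas, fadd, ripk1, ripk3 and mlkl were among those without a row. Hdr, a death receptor gene of zebrafish blood cells, had a mean of 28.8 ± 5.34 CPM in myrAKT, against 0.423 ± 0.119 CPM in MYCN (6.08 ± 0.25, edgeR adjusted p = 9.3e-08). Ripk1l, a receptor-interacting kinase, had a mean of 56.5 ± 5.98 CPM in myrAKT, against 13.5 ± 0.854 CPM in MYCN (2.07 ± 0.13, edgeR adjusted p = 4.6e-07). Cflara, for c-FLIP, which holds caspase 8 inactive at these receptors, had 32.3 ± 2.22 CPM in myrAKT against 34.1 ± 7.14 CPM in MYCN (edgeR adjusted p = 0.653; 1.42 and passing on the dbh and th scale). In the same libraries all 13 leukocyte markers were higher, as given above, and their part in the caspase and death receptor lists was not tested.

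Of 13 caspase inhibitors and substrates 9 were higher and 2 lower (13 higher and 0 lower by edgeR on the dbh and th scale, the 0 also at an unadjusted p under 0.05). Birc7, an inhibitor-of-apoptosis gene, had a mean of 9.29 ± 1.69 CPM in myrAKT, against 1.07 ± 0.171 CPM in MYCN (3.12 ± 0.23, edgeR adjusted p = 1.3e-06), and the kinases pak2a and rock1, both cut by caspases in mammals, rose by 1.97 and 1.40 on the log2 scale. Xiap, an inhibitor of caspases, was at 0.42 ± 0.15 (edgeR adjusted p = 0.028), and this call ended without any one of MYCN 1, MYCN 2, MYCN 3, myrAKT 3 or myrAKT 4 (0.32 to 0.44). Lmnb1, a lamin, and parp1, a DNA repair enzyme, both caspase substrates in mammals, were lower at -0.78 and -0.84, and were higher on the dbh and th scale at 0.75 and 0.71.

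**Figure D4:**
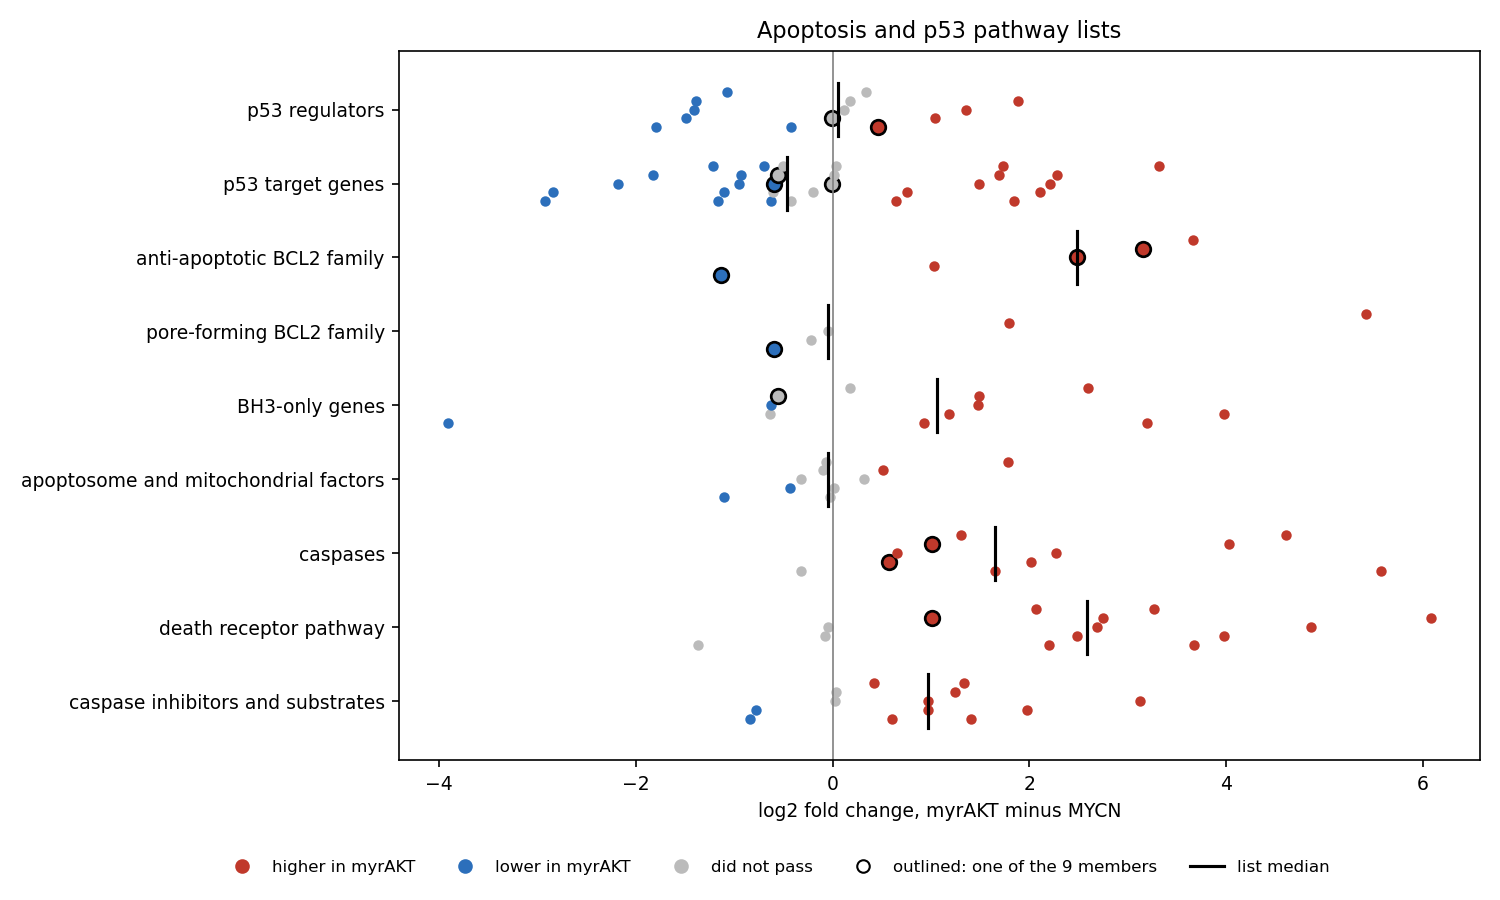
Log2 fold change, myrAKT minus MYCN (horizontal axis, TMM factors), of every tested gene of the 9 pathway lists, 1 point per gene (red, higher; blue, lower; grey, did not pass; black outline, one of the 9 genes; vertical bar, list median); points are staggered within a row for legibility only. The caspase and death receptor rows lie almost wholly to the right, with medians of 1.65 and 2.58, while the p53 regulators and targets spread to both sides of 0.

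The genes most like each of the 9 were found as those with the smallest root-mean-square difference of log2 CPM over the 8 libraries, each profile centred on its own mean. Among 7844 other genes with a mean log2 CPM of at least 3, mcl1a lay nearest to ipcef1 (0.096) and mcl1b to fgl2a (0.126). Bcl2l1 lay nearest to inpp5e (0.058), baxa to taf11 (0.053) and bbc3 to wipi2 (0.071). Mdm2 lay nearest to ppiaa (0.064), mdm4 to ccnl1a (0.095), casp3a to papolg (0.068) and casp8 to arf6b (0.126). Within the pathway lists, mdm4 and casp3a were each the nearest to the other (0.165), baxa was nearest to ddb2 (0.090), bbc3 to ei24 (0.118), mcl1a to birc7 (0.159) and mdm2 to dnm1l (0.166). Mcl1b was nearest to tradd (0.253), bcl2l1 to ppm1da (0.213) and casp8 to bcl2l10 (0.220).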

How the data were processed

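The authors deposited raw read counts per gene symbol, 1 column per library. The submitters' processing notes name TopHat2 2.1.1, HTSeq 0.6.1, SAMtools 1.5, edgeR, Trim Galore 0.4.4, FastQC 0.11.5 and the build GRCz10, in no stated role; annotation, strand setting and handling of multiply mapped reads were not given in the sources used here. Between libraries of a group, chi-square per degree of freedom was 20.2 to 264 over 12 pairs, so each counted as 1 sample.

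From the counts, edgeR 4.0.16 (R 4.3.3; filterByExpr, TMM, robust quasi-likelihood test, two-sided) was fitted on all 8 libraries, with DESeq2 1.42.0 as an alternative. The SE is the log2 fold change over the square root of F. Tested on simulated counts of this comparison (12126 genes), it called 47 of 99 genes changed 2-fold, 90 of 100 changed 4-fold and 9 unchanged ones. Far fewer genes were changed there than were called in these data, so these rates do not carry over. Ratios used counts plus 0.5 and a two-sided exact permutation test.

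The genes and lists were chosen with earlier results of these data known. Of 268 symbols on the lists, 206 matched directly and 10 through an earlier symbol in a RefSeq table of another assembly (GRCz12tu), so no coordinates are given. Another 4 were synonyms of other listed symbols. The remaining 48 matched no row, among them atm, atr, usp7, bak1, fas and fadd, so the lists are not complete families. Beside the 9 genes, named were a set of core apoptosis genes and, per list, up to 3 with the smallest adjusted p in each direction; ipcef1 and the like follow the likeness rule. Some genes under this rule are not reported here. Sequences were not analysed here.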

Additional observations from a re-analysis of the deposited data

Results flagged for a closer look

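In 106 groups of 4 libraries (each named gene in each group), 12 had 1 library far from the rest, its gap to the nearest exceeding Dixon's 95% critical share of the range on the log2 scale; chance flags about 1 group in 20. MYCN 4 was the library in 8 of the 12. Among the 9 genes it was high for casp8, at 43.4 CPM where the other MYCN libraries had 18.7 to 20.2 CPM, and low for bcl2l1, at 155 CPM against 216 to 227 CPM. MyrAKT 4 was low for mcl1b, at 48.4 CPM where the other myrAKT libraries had 66.9 to 70.1 CPM. MyrAKT 3 was low for mdm4, at 82.8 CPM against 91.0 to 92.7 CPM.

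Among the other genes named, MYCN 4 was high for endog (36.5 CPM, others 10.2 to 10.5), rchy1 (43.3 CPM, others 31.0 to 32.5), parp1 (139 CPM, others 108 to 111) and chek1 (2.37 CPM, others 1.34 to 1.40). It was low for bnip3 (7.99 CPM, others 28.4 to 30.2) and plk3 (11.7 CPM, others 16.3 to 17.2). MyrAKT 2 was high for rchy1 (14.8 CPM, others 12.3 to 12.4), and MYCN 2 for ppm1db (9.05 CPM, others 8.43 to 8.47).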

How the results depend on the processing

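With library totals 1 of the 9 genes was lower, baxa was at -0.22 without passing and mdm2 at 0.41, passing. With libraries scaled on dbh and th 8 were higher and 0 lower; mdm2 was at 1.52, bcl2l1 at 0.33, baxa at 0.93 and bbc3 at 0.90. Without MYCN 4 bbc3 passed, with the limit given for bbc3 above. Over the fits that left out 1 library its log2 fold change was between -0.77 and -0.42. Likewise the ratio difference of bcl2l1 to baxa was between -0.75 and -0.43, of mcl1a to bcl2l1 between 4.11 and 4.40, of bbc3 to bcl2l1 between 0.49 and 0.71 and of casp8 to casp3a between 0.30 and 0.93; without MYCN 4 all 4 were at exact permutation adjusted p = 0.0429. That last value has the limits given with the ratios above. Why these libraries and scalings differ was not tested. Under all 16 alternatives mdm4, mcl1a, mcl1b, casp3a and casp8 kept their direction and call. The alternative scalings all moved the median of all genes upwards, by 0.38 (library totals), 0.06 (upper-quartile factors) and 1.49 (dbh and th). They could therefore challenge a lower call but not a higher one, and no scaling that moved it well downwards was tried. The labels give library numbers but do not say whether they pair libraries. Same-numbered libraries of the groups deviated from their group means with correlations of -0.10, 0.007, 0.12 and -0.16, and not every library correlated best with its own number. Such correlations cannot settle whether libraries were prepared together, and no pairing was used in the main fit. With the replicate number as a block 8816 genes passed, against 9220 without it, and 5 of the 9 were higher and 2 lower as before, while bnip3lb (-0.59, adjusted p = 0.051), vdac2 (-0.42, 0.063) and endog (-0.83, 0.107) did not pass; the exact sign-flip test of the ratios could not go below p = 0.125. Of 99 simulated 2-fold changes 47 were called, but this rate does not carry over to these data, as stated with the simulation above. With TMM factors the confidence interval of mdm2 was -0.46 to 0.44, so a difference within that range could go undetected.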

Other observations

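Among the p53 target genes that the naming rule left out, 2 were looked at after their values were seen. Btg2, an anti-proliferative gene, had 29.3, 32.2, 35.7 and 25.1 CPM in myrAKT, and 501, 148, 130 and 96.4 CPM in MYCN; every myrAKT library lay below every MYCN library, and MYCN 1 stood far above the rest. Sesn1, a sestrin like sesn2 and sesn3, had 363, 359, 427 and 310.4 CPM in myrAKT, and 131, 113, 111 and 50.6 CPM in MYCN, so the groups lay apart in the other direction, with MYCN 4 lowest. Over all genes tested 36.3% lay below in all 4 myrAKT libraries and 36.2% above, so such separation sets neither gene apart.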
